A study of Mus musculus with 4 samples.

Results

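The E2F transcription factor family was followed through RNA of mouse colon tumour cells, and its 10 genes were taken by symbol from the 41457 genes of the deposited count table. They are the 8 E2F genes E2f1 to E2f8 and the 2 genes of their DP dimerisation partners, Tfdp1 and Tfdp2. The samples were 3 lines labelled as ENU mutants, M8, M32 and M83, and a control, all grown in RPMI medium, and each is 1 column of counts from poly(A) RNA, here referred to as a library. ENU (N-ethyl-N-nitrosourea) is an alkylating mutagen that leaves mainly point mutations. The labels name neither the cell line nor the mutated genes, and they do not say whether a line is 1 clone or shares its parent culture with the control. E2f6 was selected on its near loss of counts in M8 and the other members as its family, so the values of E2f6 are a description and carry no test.

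E2F proteins bind the promoters of genes for DNA replication and cell division. E2F1, E2F2 and E2F3 activate such genes once cyclin-dependent kinases have inactivated the retinoblastoma protein that holds them in check, and E2F4 and E2F5 act mainly as repressors together with the RB relatives p107 and p130. E2F6 does not bind these pocket proteins and silences germline genes with a Polycomb complex, whereas E2F7 and E2F8 bind DNA without a DP partner and restrain E2F targets late in S phase. Loss of RB control over E2F is a common route to unchecked S-phase entry in tumours.

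The libraries held between 25818148 (control) and 28879954 (M8) counts, and 13576 genes, all 10 members among them, passed the filter on low counts. Levels are given as CPM, the reads of a gene in every 1000000 reads counted, after correction by trimmed mean of M-values (TMM). Of 7 epithelial marker genes 3 passed the filter (Krt8, Krt18 and Krt20), and the level summed over the list was 180 CPM in M8, 73.8 CPM in M32 and 158 CPM in M83, against 103 CPM in control. Krt18 had 63.0, 36.6 and 31.5 CPM in M8, M32 and M83, against 27.8 CPM in control, and Krt20 had 3306, 1008 and 3667 counts, against 1914 in control. Krt8 was close to absent, with 22 counts in M8, 0 in M32 and 5 in M83, against 11 in control. Other defining markers of colon epithelium were absent or nearly so, since Cdh1 had at most 4 counts and Epcam and Cdx2 had 0 in every library. The summed level of 7 leukocyte markers was 0.667 CPM in M8, 0.848 CPM in M32, 0.277 CPM in M83 and 0.235 CPM in control, with Cd3e, Cd3g and Adgre1 at 0, and that of 5 endothelial markers was 0.913 CPM in M8, 0.663 CPM in M32 and 1.14 CPM in M83, against 0.353 CPM for control. The part of these markers in the results was not tested. By chromosome, the median log2 ratio over control reached -0.52 for chromosome 12 in M8 and -0.53 for chromosome 16 in M83. E2f6 lies on the first of these chromosomes, and no member lies on the second.

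The promoter sequences of the members that stood lowest in M8 are shown first, with E2f3 beside them as a member that stood lowest in M83. Each is the 250 bases before the annotated start in RefSeq (GRCm38.p6), 5′ to 3′, and capitals mark the E2F words TTCCCGC and TTGGCGC on either strand. The windows are chr12:16810715-16810964 on the plus strand for E2f6, chr10:110745189-110745438 on the plus strand for E2f7, chr7:48881597-48881846 on the minus strand for E2f8 and chr13:29986064-29986313 on the minus strand for E2f3.
E2f6: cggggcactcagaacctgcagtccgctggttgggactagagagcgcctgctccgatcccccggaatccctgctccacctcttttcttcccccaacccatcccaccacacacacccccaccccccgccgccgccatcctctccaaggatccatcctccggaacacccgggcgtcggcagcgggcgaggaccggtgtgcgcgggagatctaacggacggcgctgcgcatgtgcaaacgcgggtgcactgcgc
E2f7: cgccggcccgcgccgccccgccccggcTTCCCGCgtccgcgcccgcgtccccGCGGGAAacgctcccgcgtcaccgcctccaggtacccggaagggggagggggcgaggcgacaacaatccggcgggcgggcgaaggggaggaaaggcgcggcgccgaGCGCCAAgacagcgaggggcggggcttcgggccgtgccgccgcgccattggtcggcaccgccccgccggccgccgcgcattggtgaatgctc
E2f8: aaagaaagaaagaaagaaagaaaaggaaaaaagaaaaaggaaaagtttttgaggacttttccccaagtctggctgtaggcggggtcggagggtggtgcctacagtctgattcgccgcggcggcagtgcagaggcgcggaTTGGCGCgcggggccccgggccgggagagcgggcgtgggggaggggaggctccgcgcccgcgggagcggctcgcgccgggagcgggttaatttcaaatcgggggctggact
E2f3: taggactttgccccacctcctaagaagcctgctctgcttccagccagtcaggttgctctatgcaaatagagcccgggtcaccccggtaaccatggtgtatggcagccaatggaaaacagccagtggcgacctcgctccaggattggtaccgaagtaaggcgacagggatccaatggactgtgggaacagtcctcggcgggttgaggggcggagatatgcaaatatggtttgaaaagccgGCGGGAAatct
The E2f7 window held 3 words, which begin 223, 198 and 92 bases before the start, the E2f8 window 1 and the E2f3 stretch 1. In the E2f6 window these letters did not occur. Over the windows of 300 bases in the RefSeq table, which run past the start, 8 members were matched by symbol and 4 of them (E2f2, E2f3, E2f7 and E2f8) held a word in at least 1 window. The same was true of 7.79% of all 27025 genes in that table. E2f4 and E2f5 had no window there. The 250 bases of E2f1 lie within the gene, at 154569427 to 154569676, as the gene begins at 154569892 on the minus strand. The Tfdp2 windows also lie within the gene, from 96258455 on, where the gene begins at 96196275. Words at other starts of these genes were not looked for. A word was counted in either orientation, also where words overlapped, and a match is a description of the letters and not of binding.

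E2f6 was nearly absent from M8. Its transcript had 6 counts in M8, 403 in M32 and 549 in M83, against 369 in control. That is 0.211 CPM in M8, 14.9 CPM in M32 and 19.0 CPM in M83, against 14.5 CPM in control, so M8 alone lay outside the range of the other libraries on the low side. The scaled level in M8 was 1.46% of control, with an exact 95% binomial interval of the ratio of 0.00531 to 0.032 that covers counting error only. M32 stood at 103% and M83 at 131% of control. In such bulk RNA, fewer cells with a transcript and less of it per cell cannot be told apart. E2f6 encodes the E2F member that belongs to PRC1.6, a Polycomb repressive complex. In M8 it ranked 6th from the lowest log2 ratio among the 11156 tested genes with at least 50 counts in some library. A rank of this kind follows from its selection on near loss in M8.

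The gene (ENSMUSG00000057469) is protein-coding and lies on the plus strand of chromosome 12, from 16810963 to 16839742 in GRCm38. No annotated gene overlaps it, and none of its 5798 words of 50 bases occurs in the transcripts of another gene. Of the other 473 tested genes of the chromosome, 399 were lower in M8 than in control, at a median of -0.52 (log2). The log2 ratio of E2f6 minus that median was -5.16, a level of 0.0279 relative to it.

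**Figure D1:**
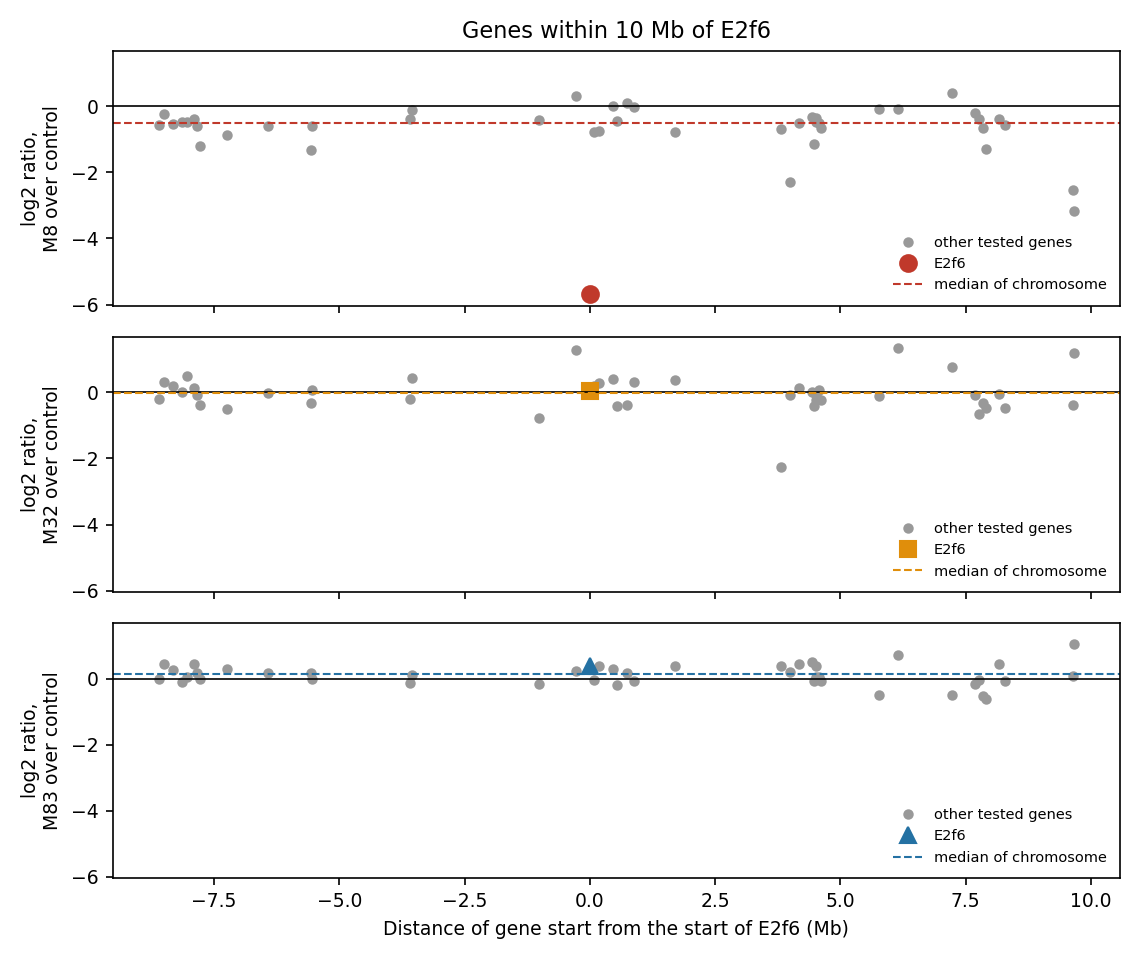
Log2 ratio of each line over control (vertical axes; TMM-scaled, prior count 2) for tested genes by the distance of their lowest coordinate from that of E2f6 in Mb. The coloured symbol is E2f6, grey points are the other 43 tested genes within 10 Mb and the dashed line is the median of the chromosome. In M8 E2f6 lies at -5.68, while the lowest other gene lies at -3.16.

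Its neighbours were present in M8. Lpin1, which encodes a phosphatidate phosphatase and has its lowest coordinate 275 kb below that of E2f6, had 396 counts in M8, 732 in M32 and 380 in M83, against 284 in control. Rock2, a gene of a kinase that acts on the actin cytoskeleton, with its lowest coordinate 83.9 kb above it, had 4163 counts in M8, 7698 in M32 and 6950 in M83, against 6356 in control. Both flanks of the gene thus carried reads in M8, with a log2 ratio of 0.32 for Lpin1 and -0.77 for Rock2. The remaining neighbours fixed by position were Trib2 at -0.40, Nbas at -0.11, Pqlc3 at -0.75 and Pdia6 at 0.01. Within 10 Mb the 43 other tested genes ranged from -3.16 to 0.40 in M8, with a median of -0.51. As the plot of genes around E2f6 shows, its log2 ratio was 0.04 in M32 and 0.39 in M83, inside the range of its neighbours.

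The genes nearest to E2f6 in profile were also at or near 0 in M8. By the distance between the 3 log2 ratios of a gene and those of E2f6, the 6 nearest of the 11156 genes were Rn7s1, Gm49450, Gbp7, Oas2, Gm28048 and Acot1. Rn7s1, a small RNA gene also on chromosome 12, was the nearest with a distance of 0.58, and had 0 counts in M8, 64 in M32 and 147 in M83, against 78 in control. Gbp7, an interferon-inducible guanylate-binding protein gene, had 4 counts in M8, 139 in M32 and 183 in M83, against 201 in control. Oas2, an antiviral oligoadenylate synthetase gene, had 14, 340 and 674 counts in M8, M32 and M83, against 346 in control. The other genes near it in profile were at 0 counts in M8 (Gm49450 and Gm28048) or at 4 (Acot1). The ratio of -5.68 for E2f6 in M8 weighs most in this distance, so low counts in M8 follow from the search. With 4 libraries, a likeness over 3 ratios is a description only.

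The activators E2f1, E2f2 and E2f3 were mostly below control, and none of the differences passed the test. E2f1, the activator also tied to apoptosis, had 134 CPM in M8, 110 CPM in M32 and 108 CPM in M83, against 131 CPM in control. M8 was thus level with control, and the other lines were at 84.2% and 82.4% of it. E2f2 had 17.9 CPM in M8, 14.1 CPM in M32 and 12.2 CPM in M83, against 20.6 CPM in control. All lines were below control, and M83 stood lowest at 59.3% of control, with an interval of the ratio of 0.516 to 0.679. E2f3, the activator needed for proliferation in mouse fibroblasts, had 53.2 CPM in M8, 50.6 CPM in M32 and 35.7 CPM in M83, against 59.4 CPM in control. M83 again stood lowest, at 60.1% of control (interval 0.555 to 0.651), where chromosome 13, on which it lies, had a median of -0.20 (log2). In the test of the lines against control, the log2 difference was -0.16 for E2f1 (SE 0.231), -0.48 for E2f2 (SE 0.306) and -0.35 for E2f3 (SE 0.284).

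**Figure D2:**
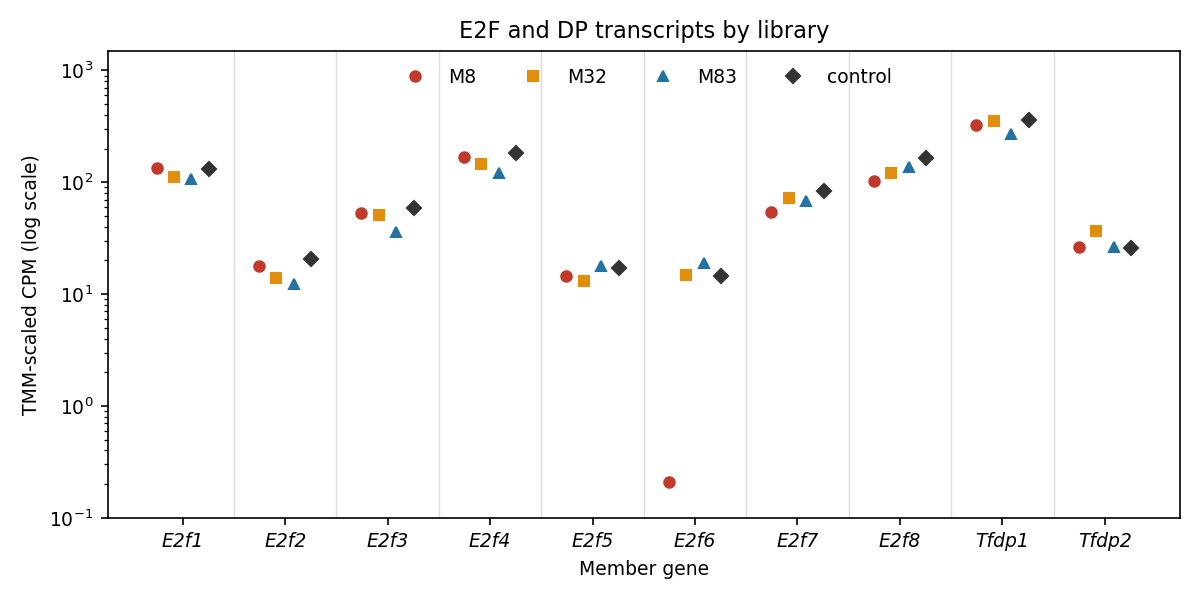
TMM-scaled CPM (vertical axis, log scale) of the 10 members, 1 symbol for each library. E2f6 in M8 lies at 0.211 CPM, and each other value lies between 12.2 CPM (E2f2 in M83) and 364 CPM (Tfdp1 in control).

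The repressor E2f4 followed the order of E2f2 and E2f3. It had 169 CPM in M8, 146 CPM in M32 and 120 CPM in M83, against 184 CPM in control. Every line was below control, and M83 was at 65.4% of it (interval 0.625 to 0.683). E2f5, the closest relative of E2f4, had 14.4 CPM in M8, 13.2 CPM in M32 and 18.0 CPM in M83, against 17.1 CPM in control. Here control lay within the range of the lines, as M83 was at 105% of it. Log2 differences were -0.35 for E2f4 (SE 0.253) and -0.17 for E2f5 (SE 0.297).

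The atypical repressors E2f7 and E2f8 had their lowest level in M8. E2f7 had 54.5 CPM in M8, 72.8 CPM in M32 and 67.9 CPM in M83, against 83.3 CPM in control. E2f8 had 102 CPM in M8, 120 CPM in M32 and 137 CPM in M83, a mean of 120 ± 17.4 CPM (SD, n = 3), against 166 CPM in control. Both genes were below control in every line, at 65.4% (E2f7, interval 0.612 to 0.698) and 61.6% (E2f8, interval 0.588 to 0.646) in M8. M83, where E2f2, E2f3 and E2f4 were lowest, had E2f7 at 81.5% and E2f8 at 82.6% of control. With a log2 difference of -0.47 (SE 0.24, edgeR quasi-likelihood unadjusted p = 0.0952, adjusted p = 1.00), E2f8 had the smallest p of the 9 members tested. That of E2f7 was -0.36 (SE 0.246). The uncharacterised transcript Gm2788, which covers 11.2% of the E2f8 exons on the opposite strand, had at most 15 counts.

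Tfdp1 and Tfdp2 encode the partners that E2F1 to E2F6 need to bind DNA. Tfdp1 had 323 CPM in M8, 350 CPM in M32 and 270 CPM in M83, against 364 CPM in control. The lines were below control, M83 at 74.1% (interval 0.719 to 0.764) and M32 at 96.3%. Of the words of Tfdp1, 16.8% also occur in the pseudogene Gm7390. No gene of that name is among the deposited counts, so its level could not be given. Tfdp2 was the one member above control in every line, with 26.7 CPM in M8, 36.5 CPM in M32 and 26.3 CPM in M83, against 25.9 CPM in control. Only in M32, at 141% of control (interval 1.27 to 1.56), did the counting interval leave out 1. The log2 differences were -0.21 for Tfdp1 (SE 0.235) and 0.20 for Tfdp2 (SE 0.287).

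**Figure D3:**
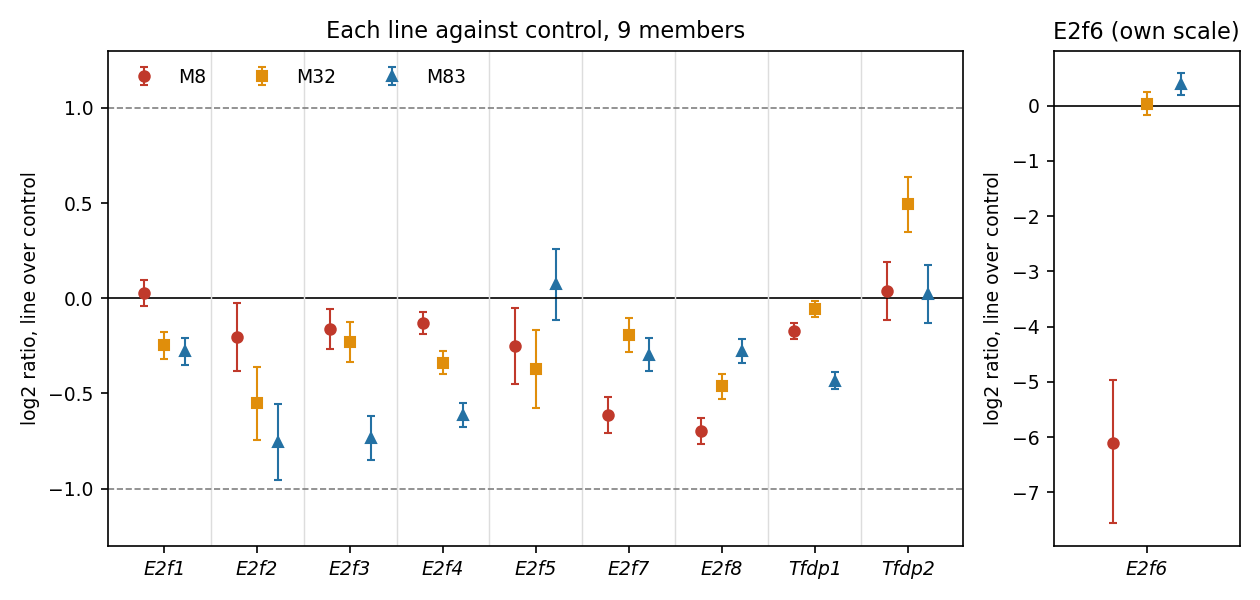
Log2 ratio of each line over control (vertical axes) for 9 members, and for E2f6 on a scale of its own. Points are ratios of scaled counts without a prior count, bars are exact 95% binomial intervals that cover counting error only, and dashed lines mark 2-fold. E2f7 and E2f8 are lowest in M8, while E2f2, E2f3, E2f4 and Tfdp1 are lowest in M83.

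Set against all genes, 6 of the 10 members (E2f2, E2f3, E2f4, E2f7, E2f8 and Tfdp1) lay below control in every line, where 21.3% of the tested genes did. In the other direction, 1 member lay above control in every line, where 23.3% of the tested genes did. Without M8 the second count was 2, E2f6 joining Tfdp2, while the share of tested genes above control in both other lines was 33.2%. All lines share the same control library, so these sides are not independent. The median log2 difference over the 9 members other than E2f6 was -0.35, against 0.02 over all tested genes. For M8, M32 and M83 alone the median over these 9 members was -0.17, -0.25 and -0.30.

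The edgeR quasi-likelihood test called 0 of these 9 members at an adjusted p under 0.05, while 0.00737% of the tested genes were called. At an unadjusted p under 0.05 it listed 0 of the 9, as did DESeq2, where 3.3% of the tested genes were listed by edgeR. These p-values rest on the scatter among 3 different mutants, and the single control library is taken to scatter as they do. A difference that misses this test is not shown to be absent.

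By size, 1 member was at least 2-fold lower than control in M8, and that was E2f6 itself, where 1.64% of tested genes met this rule. E2f6 was picked for that value, so the count is no result about the family. In M32 and M83 0 members were 2-fold lower, where 0.921% and 1.02% of tested genes were. A 2-fold higher level was met by 0 members in M8, M32 and M83, against 2.97%, 3.88% and 4.17% of tested genes. At 1.5-fold, E2f7 and E2f8 joined E2f6 in M8, against 5.67% of tested genes lower by that rule, and E2f2, E2f3 and E2f4 met it in M83, against 5.3%. In M32 0 members were lower by 1.5-fold, against 3.65% of tested genes. Higher by 1.5-fold were 0 members in M8, M32 and M83, against 6.98%, 8.02% and 8.75% of tested genes. Apart from E2f6, the highest library of a member exceeded the lowest by 1.24 (E2f1) to 1.69 times (E2f2). Over the 8374 tested genes at least as high on average as the lowest member, the median of this range was 1.38 times, with quartiles of 1.24 and 1.59.

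Between genes, levels were compared as CPM per kb of annotated exon. The length is the union of all annotated exons of a gene, so order and shares depend on the annotation. In CPM alone, E2f8 lay above E2f1 in M32 (120 against 110), M83 (137 against 108) and control (166 against 131). In M8 it lay below E2f1 (102 against 134). Tfdp1 led with 88.0 CPM per kb in M8, 95.4 in M32 and 73.4 in M83, against 99.1 in control, and made up 97.3% to 98.2% of the DP level in each library. Among the E2F genes E2f4 was highest, with 68.7 CPM per kb in M8, 59.4 in M32 and 49.1 in M83, against 75.1 in control. E2f1 came next with 42.4, 35.01 and 34.3 CPM per kb in M8, M32 and M83, against 41.6 in control, and then E2f8 with 18.8, 22.1 and 25.2, against 30.5 in control. Over the lines these 4 genes did not overlap, while E2f4 in control lay above Tfdp1 in M83.

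The lower ranks were less separate. E2f3 ranged from 6.58 to 9.79 CPM per kb over the lines, E2f5 from 7.43 to 10.1 and E2f7 from 6.05 to 8.08, so that these neighbours overlapped. E2f2 at 2.51 to 3.68 CPM per kb overlapped E2f6 and Tfdp2, and E2f6 had 0.0372 CPM per kb in M8 against 2.55 in control. The summed E2F level was 158 CPM per kb in M8, 147 in M32 and 139 in M83, against 184 in control. Of this sum E2f4 held 43.6% in M8, 40.4% in M32 and 35.4% in M83, against 40.9% in control. The atypical pair E2f7 and E2f8 held 15.8% in M8, 20.6% in M32 and 23.6% in M83, against 21.6% in control, and E2f6 held 0.0236% in M8, against 1.39% in control.

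**Figure D4:**
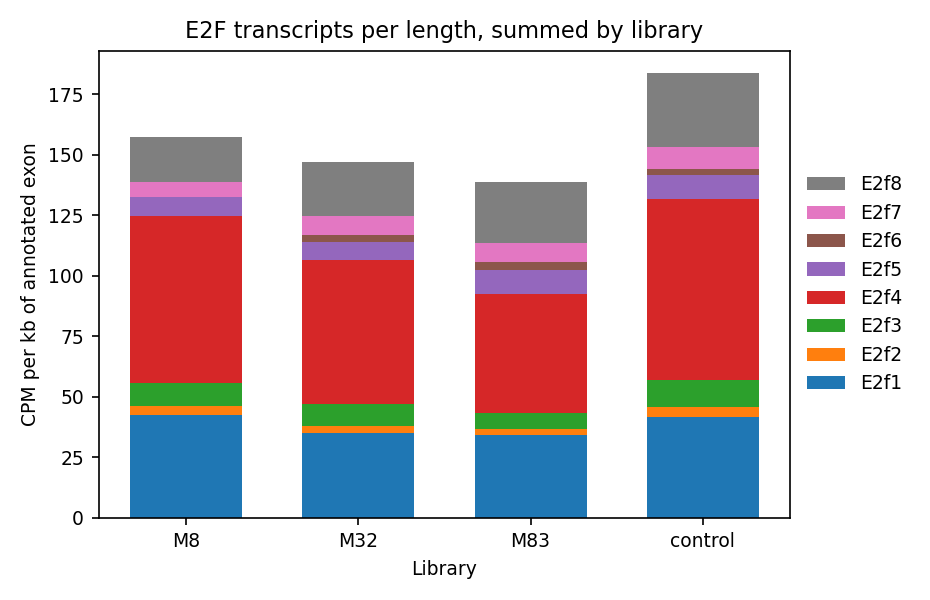
Summed level of the 8 E2F genes in CPM per kb of annotated exon (vertical axis) by library, each colour 1 gene. The bars reach 158 in M8, 147 in M32, 139 in M83 and 184 in control, and E2f4 and E2f1 fill most of each.

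The genes of E2F6 partners in PRC1.6 stayed within 2-fold of control. All 13 listed genes passed the filter, with list medians (log2) of 0.01 in M8, -0.10 in M32 and -0.13 in M83. In any line 0 were 2-fold lower or higher. Of all tested genes 1.64%, 0.921% and 1.02% were 2-fold lower in M8, M32 and M83, and 2.97%, 3.88% and 4.17% higher. For 13 genes, 0 lies near these shares. Below control in every line were 5 of the 13 listed genes, or 38.5%, beside the 21.3% of all tested genes. The named ones were Hdac1, a histone deacetylase gene, at a log2 difference of -0.47 (SE 0.225), the Polycomb ring finger gene Pcgf6 at -0.35 (SE 0.261), Wdr5 at -0.22 (SE 0.254) and Max, the dimer partner of MGA, at -0.19 (SE 0.231). Max lies on chromosome 12 and had a log2 ratio of -0.36 in M8.

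Germline genes that E2F6 keeps silent in mouse somatic cells had at most 4 counts in any library. All 5 on the list hold an E2F word in their promoter window, where 7.79% of all genes do. They were listed as genes that E2F6 represses, so the word is no result of these data. The upstream 250 bases of a pair of them show where it stands, at chr15:85131958-85132207 on the minus strand for Smc1b and chr6:125286082-125286331 on the minus strand for Tuba3a.
Smc1b: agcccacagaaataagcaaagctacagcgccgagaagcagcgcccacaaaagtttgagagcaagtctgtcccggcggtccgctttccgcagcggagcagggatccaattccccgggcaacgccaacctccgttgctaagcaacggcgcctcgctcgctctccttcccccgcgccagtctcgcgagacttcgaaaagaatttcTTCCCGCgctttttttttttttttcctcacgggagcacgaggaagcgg
Tuba3a: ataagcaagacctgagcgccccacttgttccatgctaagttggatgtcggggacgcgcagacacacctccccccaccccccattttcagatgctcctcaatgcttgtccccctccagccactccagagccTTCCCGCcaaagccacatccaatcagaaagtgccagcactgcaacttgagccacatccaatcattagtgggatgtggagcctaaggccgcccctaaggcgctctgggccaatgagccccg
The word begins 48 bases before the start of Smc1b, a meiotic cohesin gene, and 120 bases before that of Tuba3a, a testis tubulin gene. Smc1b had 1 count in M8 and 0 in M32, M83 and control. Tuba3a had 4 counts in M8, 0 in M32 and 0 in M83, against 1 in control. Tuba3b, a near copy whose reads may be split with Tuba3a, had 1, 1 and 0 counts in the lines and 1 in control, Stag3, another meiotic cohesin gene, had 2, 0 and 1 in the lines and 0 in control, and the ADP/ATP carrier gene Slc25a31 had 0 in each library. None of the 5 passed the filter, and a count of 0 allows up to 0.105 CPM in M8 and 0.118 CPM in control. Their highest level was 0.14 CPM (Tuba3a in M8), and differences among so few counts could not be resolved.

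Other germline genes bound by PRC1.6 were mostly silent as well. Counts were found in 4 of 11, and 2 passed the filter, both above control in every line, beside 23.3% of all tested genes. Sycp1, a synaptonemal complex gene, had 154 counts in M8, 145 in M32 and 199 in M83, against 115 in control (log2 difference 0.38, SE 0.4). Zcwpw1, a meiotic histone reader gene chosen after its values were seen, had 119 counts in M8, 125 in M32 and 122 in M83, against 58 in control. Taf7l, a spermatogenic TFIID subunit gene also chosen after its values were seen, had 10 counts in M8, 0 in M32 and 2 in M83, against 0 in control. Sycp3, the remaining listed gene with counts, had 0 in M8, 3 in M32 and 0 in M83, against 0 in control. Neither Taf7l nor Sycp3 passed the filter, and differences among so few counts could not be resolved.

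Upstream of the E2F proteins, the pocket protein genes differed from one another in direction, and none passed the test. Rb1, the retinoblastoma gene, had 19.3 CPM in M8, 18.8 CPM in M32 and 23.9 CPM in M83, against 22.5 CPM in control (log2 difference -0.12, SE 0.266). Rbl1, which encodes p107, had 61.9 CPM in M8, 80.9 CPM in M32 and 79.7 CPM in M83, against 90.5 CPM in control (-0.29, SE 0.245). It was the 1 pocket protein gene of 3 below control in every line, beside 21.3% of tested genes, and stood lowest in M8 with a log2 ratio of -0.55. Rbl2, which encodes p130, had 16.9 CPM in M8, 20.9 CPM in M32 and 25.6 CPM in M83, against 19.3 CPM in control (0.13, SE 0.309), and its log2 ratio was 0.41 in M83.

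CDK inhibitors, which hold back the kinases that release E2F, differed gene by gene. Cdkn1a, the p21 gene, had 10344 counts in M8, 6756 in M32 and 8319 in M83, against 5371 in control, and was above control in every line (log2 difference 0.51, SE 0.279). Cdkn2d had 793 counts in M8, 1104 in M32 and 1060 in M83, against 1128 in control, and was below control in every line (-0.33, SE 0.276). Cdkn1b, the p27 gene, had 499 and 555 counts in M8 and M32 and 1044 in M83, against 687 in control. Cdkn2c had 1188, 1447 and 1158 counts in M8, M32 and M83, against 1309 in control. The locus of Cdkn2a and Cdkn2b, which encode inhibitors often lost in tumours, had at most 1 count per gene in any library, and Cdkn1c had 0.

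Among the 10 cyclin and CDK genes 5 were below control in every line and 1 above, beside 21.3% and 23.3% of all tested genes, with a median log2 difference of -0.16. Ccnd1, the cyclin D1 gene, had a log2 difference of -0.51 (SE 0.272) and was lowest in M32 with 18624 counts, against 32385 in control. Ccne2, a cyclin E gene and itself an E2F target, was at -0.44 (SE 0.237), Cdk1 at -0.31 (SE 0.216) and Ccnd3 at 0.29 (SE 0.236). MuvB and DREAM are the complexes through which E2F4 represses and through which cell cycle genes are later activated. The list of their genes also holds the activators Mybl2 and Foxm1. Of its 7 genes 2 were below control in every line, or 28.6%, near the 21.3% of all tested genes. Without M8 the count was 4 of 7, beside 32.8% of all tested genes. One of the pair below in every line, Lin52, lies on chromosome 12 and had a log2 ratio of -0.96 in M8. Without chromosomes 12 and 16 the count was 1 of 6, and that gene was Mybl2. Mybl2, the B-MYB gene and E2F target, had a log2 difference of -0.53 (SE 0.22, edgeR unadjusted p = 0.0478, adjusted p = 1.00), while Lin9 was at 0.19, Lin54 at 0.12 and Rbbp4 at -0.10.

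Downstream, S-phase genes that E2F proteins activate were mostly below control. Of 36 genes 32 were below control in every line, or 88.9%, against 21.3% of all tested genes, and 1 (Orc1) was above. The median log2 difference of the list was -0.32, against 0.02 over all tested genes, and line by line it stood at -0.28 for M8, -0.27 for M32 and -0.47 for M83. In edgeR 0 passed at an adjusted p under 0.05, and 0 at an unadjusted p under 0.05. Over all tested genes 0.00737% and 3.3% did. Every ratio holds the same control library, so the genes are not independent of each other. Of the 30 listed genes matched to a RefSeq promoter, 17 held an E2F word, or 56.7%, where 7.79% of all genes did. The list was drawn up as E2F targets, so a higher share is built into it and is no result of these data.

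Rrm2, a ribonucleotide reductase subunit gene, had 173 CPM in M8, 310 CPM in M32 and 277 CPM in M83, against 426 CPM in control, and was the only gene of this list 2-fold lower in M8. It lies on chromosome 12, lower as a whole in that line, where 1.64% of all tested genes were 2-fold lower. Mcm4, a subunit of the replicative helicase, had 186 CPM in M8, 191 CPM in M32 and 105 CPM in M83, against 244 CPM in control. Cdc45, a component of the active form of that helicase, had 35.3, 33.5 and 19.6 CPM in M8, M32 and M83, against 47.1 CPM in control. With Chaf1b, a chromatin assembly gene at 29.4, 28.3 and 19.8 CPM in the lines and 39.8 CPM in control, these were the 3 genes of the list 2-fold lower in M83. All 3 lie on chromosome 16, which as given above was at -0.53 in M83. The part of the chromosome in their values was not tested. Over all tested genes 1.02% were 2-fold lower in M83. Leaving out the 5 listed genes on chromosomes 12 and 16, a choice made after seeing the data, 27 of 31 genes, or 87.1%, were below control in every line, against 20.8% of the tested genes off these chromosomes.

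**Figure D5:**
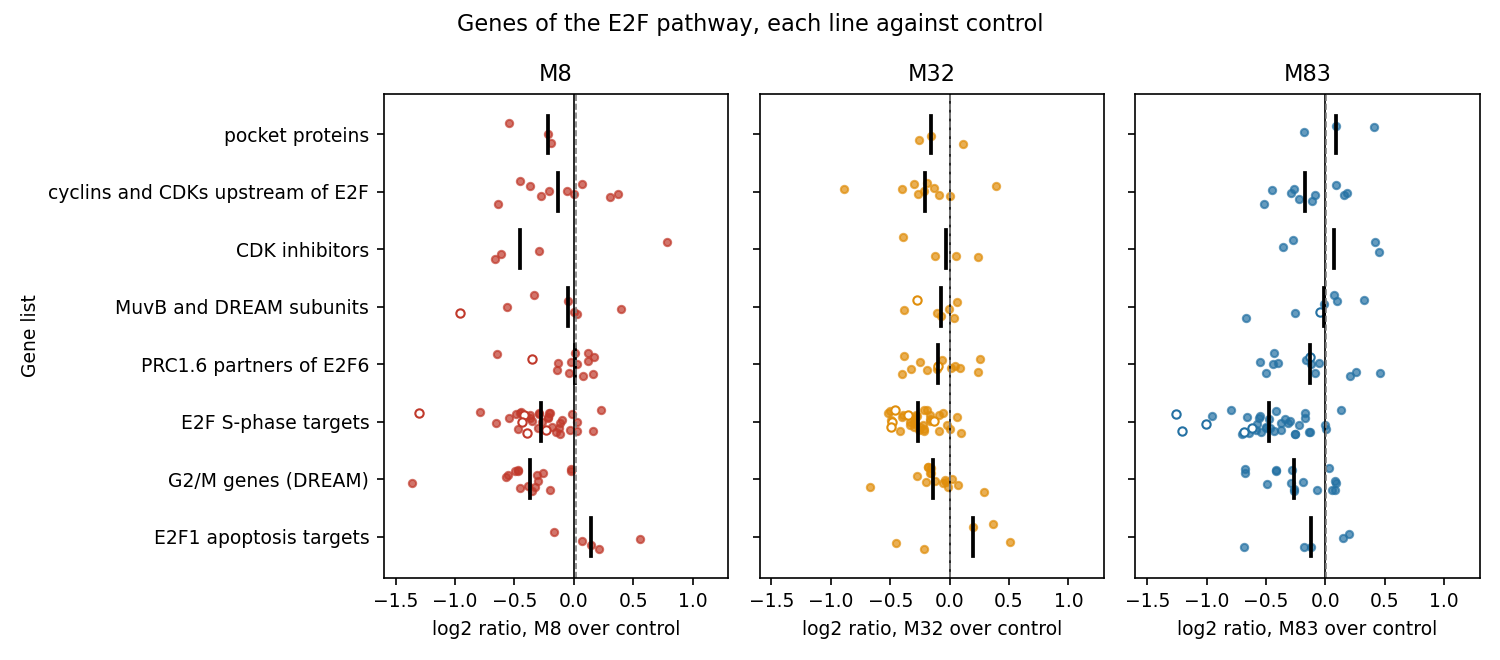
Log2 ratio over control (horizontal axes) of the tested genes of 8 E2F pathway lists in M8, M32 and M83. Each point is a gene, open points lie on chromosome 12 or 16, black bars are list medians and the dashed line is the median of all tested genes. The S-phase list has medians of -0.28 in M8, -0.27 in M32 and -0.47 in M83.

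Genes of G2 and mitosis, which DREAM holds down in resting cells, were below control in every line for 9 of 16, or 56.3%, and above it for 0, against 21.3% and 23.3% of all tested genes. Line by line the list median (log2) stood at -0.37 for M8, -0.14 for M32 and -0.26 for M83, so that M8 was lowest, whereas the S-phase list was lowest in M83. The proliferation marker Mki67, the 1 gene of this list 2-fold lower in M8, had 187 CPM in M8, 302 CPM in M32 and 302 CPM in M83, against 482 CPM in control (log2 difference -0.87, SE 0.305, edgeR unadjusted p = 0.0267, adjusted p = 1.00). Of all tested genes 1.64% were 2-fold lower in M8. Plk1, a mitotic kinase gene, was at a log2 difference of -0.36 (SE 0.239), Ccnb2 at -0.34 (SE 0.283) and the kinesin gene Cenpe at -0.32 (SE 0.226).

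E2F1 targets of apoptosis showed no common direction. Of 7 listed genes 5 were tested, 1 below and 2 above control in every line, beside 21.3% and 23.3% of all tested genes. Bbc3, the gene of the cell death protein PUMA, had 536 counts in M8, 446 in M32 and 411 in M83, against 326 in control (log2 difference 0.37, SE 0.298), and Apaf1 was at 0.16 (SE 0.227). Trp73, a p53 relative that E2F1 induces, had 2 counts in M8 and 0 in M32, M83 and control.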

How the data were processed

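Poly(A) RNA of 4 samples was extracted with RNeasy Micro columns and made into libraries with NEBNext kits, per the labels' protocols. The values are the authors' deposited raw counts, whole numbers by gene and not normalised. The submitters' processing notes name GRCm38. Aligner, counter, annotation and strand setting: not given in the sources used here, so genes that overlap may share reads. The design text speaks of triplicates, yet a sample has 1 column, and it is not known if repeats were summed in it.

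Counts were scaled with TMM factors and fitted across all genes with edgeR 4.0.16 in R 4.3.3 (filterByExpr, quasi-likelihood F-test, 2 residual degrees of freedom, Benjamini-Hochberg adjustment over 13576 genes), the 3 lines against the control. As another tool, DESeq2 1.42.0 was run. Single lines and control were compared with no test, by a log2 ratio of TMM-scaled counts with a prior count of 2. A gene was called 2-fold when the ratio passed that size, the higher library held at least 50 counts and the exact 95% Clopper-Pearson interval left out 1. Percentages of control and intervals use no prior count. The labels name no molecular identifiers, so intervals and floors (a count of 0 allows up to 3) cover counting error only. Positions and exon lengths came from GENCODE M21 (GRCm38), which holds 41434 of the 41457 row identifiers, and promoters from RefSeq.

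The members and the 13 gene lists were chosen with earlier results of these data known. All members are named. Up to 4 genes per list are named by the size of the log2 difference (mean of at least 5 CPM), all genes of 3 lists (pocket proteins, CDK inhibitors, E2F6-repressed germline genes), 3 neighbours of E2f6 per side and the 6 genes nearest to it in profile; further genes were added with their values in view. Some genes of the lists are not reported here by name. The scripts were tested on simulated data.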

Additional observations from a re-analysis of the deposited data

How the results depend on the processing

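No paired analysis was possible because there was 1 control library and the labels pair it with no line. Leaving out each line in turn, edgeR called 0 of the 9 members other than E2f6, and the same count held with median-of-ratios (RLE) size factors, with no filter on low counts and in DESeq2. Over all genes edgeR called 1, without the filter 2, and DESeq2 40 of the 12598 genes it gave an adjusted p. All 9 log2 differences kept their sign in these settings, but leaving out 1 line moved 5 of them by over 1.5 times. E2f1 was at -0.26 without M8, E2f3 at -0.21 without M83, E2f5 at -0.11 without M32 and -0.32 without M83, Tfdp1 at -0.32 without M32 and -0.13 without M83, and Tfdp2 at 0.00 without M32. With a threshold of 1.5-fold in place of 2-fold, the members lower than control numbered 3 in M8, E2f6 among them, and 3 in M83. Of all tested genes 5.67% in M8 and 5.3% in M83 were lower by that rule. Leaving out 1 line, 6 to 7 members lay below control in the others and 1 to 2 above, beside 28% to 32.8% and 31.2% to 33.2% of all tested genes, and of the MuvB and DREAM genes 2 to 4 lay below; the upper value of the last pair came without M8. The log2 ratio of E2f6 in M8 was -5.98 with a prior count of 0.5 and -5.22 with a prior count of 5, against -5.68 with 2. The S-phase list had 32 genes below control whichever line was left out, beside the same 28% to 32.8% of all tested genes. What limits these results is the single library per line and for control, which no setting here changes, and for the germline genes a depth at which a handful of reads cannot be told from 0.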
